A study of Homo sapiens with 40 samples.

Results

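The genes described here encode the ID proteins ID1, ID2 and ID3 and the E proteins TCF3, TCF4 and TCF12. They were found as the probes whose gene symbol in the probe-to-gene table was one of these 6, which gave 19 probes, of 15246 probes and 4604 named genes in all. ID1 had 1 probe, ID2, ID3 and TCF3 had 3 each, TCF4 had 4 and TCF12 had 5. The set was chosen by family, with results of these arrays in view. The log2 ratio of ID1 in KMS12 cells was the value known to have brought it up, so ID1 in KMS12 is given as a description with no test.

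The arrays came from cultured cell lines in which a short hairpin RNA against CASP10 could be switched on with doxycycline. CASP10 encodes caspase-10, an initiator caspase of the death-receptor family. The study compared 3 multiple myeloma lines with 2 lymphoma lines used as controls, on lymphochip arrays, which carry cDNA probes chosen for lymphoid genes. On 36 of the 40 arrays RNA of induced cells (Cy5) was set against that of uninduced cells (Cy3) from the same day and line, and the other 4 are described below. Every value was read as a log2 ratio of Cy5 over Cy3, above 0 where the gene was higher in induced shCasp10 cells. The base and the direction are assumptions of this reading, and the sign and size of every value rest on them.

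All cells had been transduced with a retroviral hairpin vector and selected with puromycin, and the induced ones had 20 ng/ml doxycycline for 24 to 120 hours (days 1 to 5). The myeloma line SKMM1 carried shCasp10-2 in 3 time courses (repeats 1, 2 and 3). H929 carried shCasp10-3 in 1 course and shCasp10-2 in 2 courses (repeats 1 and 2). KMS12 carried shCasp10-3 in 1 course and shCasp10-2 in 1 course. The lymphoma lines OCI-Ly7 and OCI-Ly19 carried shCasp10-2, with days 3 and 4 only. In 1 further SKMM1 course of 4 arrays, induced shCasp10-2 cells were set against induced cells with a control hairpin (shCtrl) on days 1 to 4, and the labels do not say whether its Cy5 RNA was that of another course. Uninduced cells held no doxycycline, so in all other courses the hairpin and the drug cannot be told apart. The labels state biological repeats for H929 and SKMM1, and for the other lines a p-value covers nothing but the spread of the samples at hand, which may be technical. The line names are the labels', and ratios give no level against which cell identity could be checked.

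The arrays differed in spread. On 12 of the 40, called wide here, over 10% of probes had a log2 ratio beyond 3 in size: days 2 to 5 of SKMM1 repeat 2, day 4 of SKMM1 repeat 3, days 2 and 3 of H929 with shCasp10-3, days 1 and 2 of H929 repeat 1, days 1 and 2 of KMS12 with shCasp10-2, and day 3 of OCI-Ly7. Array medians ran from -2.15 to 0.36. Of the 780 pairs of arrays, 87 had a Pearson's r under -0.3 across the probes. The lowest, -0.517, was that of day 5 in SKMM1 repeat 3 with day 5 in repeat 2. CASP10 itself averaged -0.63 ± 0.59 over the 8 myeloma courses (SD), with 7 of them below 0 and SKMM1 repeat 3 at 0.01. Without the wide arrays it averaged -0.25 ± 0.19 over the 7 courses that remained. It averaged 1.77 on the 2 arrays labelled OCI-Ly7, against their label, -0.06 in OCI-Ly19 and -0.66 against the control hairpin.

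E proteins are basic helix-loop-helix transcription factors that bind E-box DNA as homodimers or with tissue-restricted partners, and in the B lineage they drive the genes of B-cell identity and immunoglobulin expression. ID proteins share the helix-loop-helix region but lack the basic DNA-binding region, so a heterodimer of an ID and an E protein does not bind DNA. ID genes are short-lived early targets of BMP and TGF-beta signalling in many cell types, and their balance with E proteins sets how lymphoid cells grow and mature.

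The 3 ID genes lie on chromosomes 20 (ID1), 2 (ID2) and 1 (ID3), and the E-protein genes on chromosomes 19 (TCF3), 18 (TCF4) and 15 (TCF12). The 250 bases before the RefSeq start of each ID gene are printed because ID2 and ID3 had like ratios over the pooled arrays while ID1 did not. A link between these bases and the ratios was not tested. The bases are from GRCh38.p14, 5′ to 3′ on the strand of the gene. ID1 is at chr20:31605039-31605288 on the plus strand, ID2 at chr2:8681806-8682055 on the plus strand and ID3 at chr1:23559502-23559751 on the minus strand. Capitals mark matches, on either strand, to 3 sets of letters: CANNTG for the E-box, CCAAT for the CCAAT box and TATAAA for the TATA box.
ID1: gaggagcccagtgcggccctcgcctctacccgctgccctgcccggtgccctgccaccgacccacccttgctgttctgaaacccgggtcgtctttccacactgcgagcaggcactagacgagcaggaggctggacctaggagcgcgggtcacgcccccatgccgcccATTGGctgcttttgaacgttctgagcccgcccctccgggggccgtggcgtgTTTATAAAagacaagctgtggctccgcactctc
ID2: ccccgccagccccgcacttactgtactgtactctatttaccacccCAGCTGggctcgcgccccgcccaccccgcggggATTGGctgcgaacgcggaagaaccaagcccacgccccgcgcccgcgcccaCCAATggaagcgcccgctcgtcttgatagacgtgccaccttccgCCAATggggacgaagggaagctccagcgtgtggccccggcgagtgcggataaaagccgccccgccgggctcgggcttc
ID3: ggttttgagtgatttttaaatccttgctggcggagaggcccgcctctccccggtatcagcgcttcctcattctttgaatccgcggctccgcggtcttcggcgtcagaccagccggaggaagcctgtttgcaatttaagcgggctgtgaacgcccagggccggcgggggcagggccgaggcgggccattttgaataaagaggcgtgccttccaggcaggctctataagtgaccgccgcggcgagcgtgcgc
ID1 held 1 CCAAT-box match at -84 to -80 from the start and 2 TATA-box matches, at -33 to -28 and -31 to -26, which overlap and read the opposite strands. ID2 held 1 E-box match, at -205 to -200, and 3 CCAAT-box matches, at -172 to -168, -122 to -118 and -78 to -74. ID3 held none of these letters in the window. Of 35116 promoters of the same length, 61.8% held the E-box letters, 32% the CCAAT box and 10.7% the TATA box. G and C made up 66.0% of the ID1 window, 69.2% of the ID2 window and 62.0% of the ID3 window.

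ID2 kept one sign in SKMM1, though not one size. Its gene mean was below 0 on each of the 12 SKMM1 arrays against uninduced cells, a pattern shared by 0.795% of all features, and on the 4 SKMM1 arrays against the control hairpin as well, a pattern of all 16 arrays shared by 0.609%. In SKMM1 repeat 1 the ID2 ratios were -0.58, -0.37, -0.33 and -0.30 on days 1 to 4. In repeat 2, all on wide arrays, they were -3.47, -1.98, -0.32 and -0.76 on days 2 to 5. In repeat 3 they were -0.63, -0.12, -0.54 and -0.38 on days 2 to 5, of which only day 4 was on a wide array. Repeats 1 and 3 thus lay between -0.63 and -0.12, and repeat 2 reached lower on days 2 and 3.

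Against the control hairpin, which was induced with the same drug, ID2 stood at -0.29, -0.61, -0.26 and -0.48 on days 1 to 4 in SKMM1. These lie in the range of repeats 1 and 3. In H929, ID2 ran from -0.43 to 0.27 on the arrays that were not wide. It read -0.01, 0.30, 0.09 and 0.01 with shCasp10-3 (days 2 to 5), the first pair on wide arrays. With shCasp10-2 it read -2.43, -0.17, 0.27 and 0.14 in repeat 1 (days 1 to 4), the first pair on wide arrays, and -0.21, -0.43, 0.15 and 0.18 in repeat 2 (days 2 to 5). H929 arrays fell on both sides of 0 in both shCasp10-2 repeats, and day 3 of repeat 2 lay in the range of SKMM1 repeats 1 and 3.

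In KMS12, ID2 was -0.09, -0.25, 0.02 and -0.19 with shCasp10-3 (days 2 to 5). With shCasp10-2 it was -0.57, -0.93, -0.31 and -0.24 on days 1 to 4, the first pair on wide arrays. It was 1.44 and -0.20 on days 3 and 4 on the arrays labelled OCI-Ly7 and -0.10 and -0.26 in OCI-Ly19. All but 1 of the KMS12 arrays and all but 1 of the lymphoma arrays were below 0.

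The ID2 probes did not all carry the extreme values. Probe 29735_1 stood at -7.97, -2.99 and -0.17 in SKMM1 repeat 2 (days 2 to 4), where probe 19261_1 stood at -0.72, -1.22 and -0.45 and probe 26523_1 at -1.72, -1.74 and -0.35. On day 3 of OCI-Ly7 probe 29735_1 gave 5.62, while the other probes gave -0.45 and -0.86. Over the 28 arrays that were not wide, with array medians subtracted, probes 19261_1 and 26523_1 correlated at r = 0.75 and the third probe with them at 0.13 and 0.17. Probe 26523_1 was below 0 on 12 of 12 SKMM1 arrays, and probes 19261_1 and 29735_1 on 11 each. From the pair of agreeing probes alone, ID2 averaged -0.63 ± 0.36 over the 3 SKMM1 courses (SD), against -0.90 ± 0.89 from all 3 probes.

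ID3 had opposite signs in the lines. In SKMM1 repeat 1 it was -0.77, -0.84, -0.62 and 0.15 on days 1 to 4, and in repeat 3 it was -0.59, -0.39, -0.84 and -0.43 on days 2 to 5. In repeat 2 it was -1.80, -0.90, 0.15 and -0.15 on days 2 to 5. So 10 of the 12 SKMM1 arrays were below 0, all those of days 1 to 3 among them. ID3 against the control hairpin was -0.32, -0.73, 0.14 and 0.09 on days 1 to 4, below 0 on the first days only.

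In H929, ID3 was 0.41, -0.09, 0.50 and 0.17 with shCasp10-3 (days 2 to 5). With shCasp10-2 it was -1.15, 0.01, 0.41 and 0.68 in repeat 1 (days 1 to 4) and 0.18, -0.13, 0.08 and 0.44 in repeat 2 (days 2 to 5). Each H929 course averaged above 0, at 0.28 with shCasp10-3 and at 0.37 and 0.04 in the shCasp10-2 repeats, while the SKMM1 courses averaged -0.44, -0.85 and -0.61. Of all features 6.41% were above 0 in all 3 H929 courses, ID3 as the 1 member. ID3 was the only member whose SKMM1 courses were all below 0 and whose H929 courses were all above it, which held for 0.403% of all features.

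In KMS12, ID3 was -0.58, -0.36, -0.35 and -0.16 with shCasp10-3 (days 2 to 5) and -0.36, -1.24, -0.49 and 0.02 with shCasp10-2 (days 1 to 4). In the lymphoma lines it was -0.36 and -0.02 on days 3 and 4 on the arrays labelled OCI-Ly7 and -0.25 and -0.53 in OCI-Ly19. All lymphoma arrays and 7 of the 8 KMS12 arrays thus lay on the SKMM1 side of 0. Of all features 12.3% were below 0 on all 4 lymphoma arrays, and 49.7% averaged below 0 in both KMS12 courses. The probe behind the low values of SKMM1 repeat 2 was 26459_1, at -5.45, -2.64 and 0.05 on days 2 to 4. There probe 17817_1 read -0.40, -0.24 and 0.27 and probe 28340_1 read 0.44, 0.19 and 0.12. These 2 probes correlated at 0.83 over the 28 arrays, and from them alone SKMM1 repeat 2 averaged 0.06, so that only 2 of the 3 SKMM1 courses stayed below 0, at -0.54 and -0.74. The H929 courses averaged 0.33 ± 0.16 from this pair (SD, n = 3). On day 4 of the arrays labelled OCI-Ly7 the pair averaged 0.03, above 0.

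ID1, which had a single probe, was low in KMS12 and high in the lymphoma lines. In KMS12 it was -0.53, -0.62, -0.29 and 0.34 with shCasp10-3 (days 2 to 5) and -0.67, -5.80, -0.53 and -0.49 with shCasp10-2 (days 1 to 4), where the first pair were wide arrays. All 7 KMS12 arrays of days 1 to 4 were below 0, as were 12.4% of all features, and day 5 was above it. Without the wide arrays both hairpins gave close averages, -0.48 for shCasp10-3 and -0.51 for shCasp10-2.

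In the lymphoma lines ID1 was 1.31 and 0.92 on days 3 and 4 on the arrays labelled OCI-Ly7 and 0.50 and 1.37 in OCI-Ly19. All 4 were above 0, as were 26.9% of all features. Of the features, 25.2% were below 0 in both KMS12 courses and above 0 in both lymphoma courses, ID1 among them.

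SKMM1 had ID1 on both sides of 0, with 6 of 12 arrays below it. The ratios were -0.09, -0.16, -0.29 and -0.35 in repeat 1 (days 1 to 4), 0.02, 0.25, 0.26 and -0.60 in repeat 2 (days 2 to 5), and 0.05, -0.03, 0.37 and 0.18 in repeat 3 (days 2 to 5). With the control hairpin as the other channel they were -0.76, -0.67, -0.27 and 0.27 on days 1 to 4. H929 gave 0.03, 0.11, -0.06 and 0.32 with shCasp10-3 (days 2 to 5). With shCasp10-2 it gave -6.36, -2.54, -0.02 and -0.08 in repeat 1 (days 1 to 4) and 0.00, -0.04, -0.30 and -0.14 in repeat 2 (days 2 to 5). The 2 lowest H929 values were both on wide arrays, and on the others ID1 lay within -0.30 and 0.32.

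**Figure D1:**
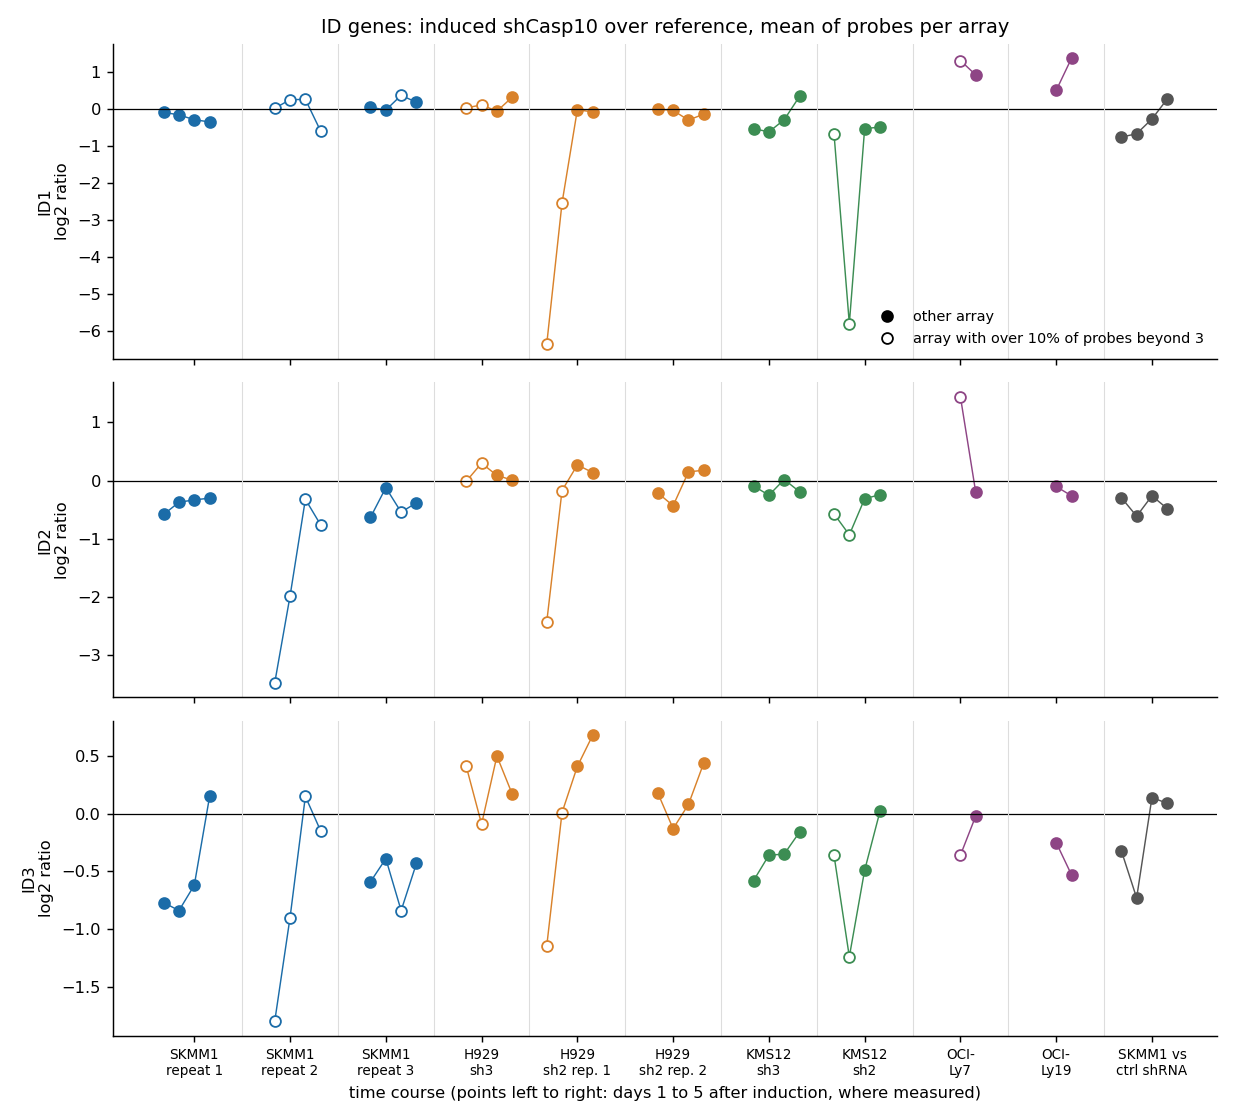
Log2 ratios of ID1, ID2 and ID3 (vertical axes, mean of the probes of a gene) for each array, by time course (horizontal axis) with the days from left to right. Open circles are wide arrays. ID2 lies below 0 on every SKMM1 array, ID3 averages above 0 in each H929 course, and ID1 lies between 0.50 and 1.37 on the 4 lymphoma arrays.

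Among the E proteins, TCF3, which encodes E12 and E47, varied least between the 8 myeloma courses (SD 0.25, against 0.91 for TCF4 and 0.76 for TCF12). In SKMM1 it was 0.21, -0.07, -0.23 and 0.13 in repeat 1 (days 1 to 4), -2.24, 0.06, 0.35 and 0.29 in repeat 2 (days 2 to 5), and -0.53, -0.71, -0.36 and -0.24 in repeat 3 (days 2 to 5). Only repeat 3 stayed on one side of 0. The value of -2.24 came from probe 28370_1 at -7.76, while probes 30212_1 and 33028_1 gave 0.39 and 0.64 on that array. These 2 probes correlated at 0.88 over the 28 arrays, and from them the SKMM1 courses averaged -0.27, 0.53 and -0.75.

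In H929, TCF3 was 0.37, -0.01, -0.02 and -0.10 with shCasp10-3 (days 2 to 5). With shCasp10-2 it was -1.13, -0.19, -0.32 and -0.06 in repeat 1 (days 1 to 4) and 0.14, -0.19, 0.04 and -0.03 in repeat 2 (days 2 to 5). In KMS12 it was 0.04, -0.04, -0.33 and -0.01 with shCasp10-3 (days 2 to 5) and -0.01, -0.20, -0.08 and 0.01 with shCasp10-2 (days 1 to 4). Apart from the first wide array of H929 repeat 1, TCF3 stayed within -0.33 and 0.37 in these lines. The lymphoma values were all below 0, 2 of the 4 outside that range, at -0.58 and -0.17 on days 3 and 4 on the arrays labelled OCI-Ly7 and -0.32 and -0.95 in OCI-Ly19, and 12.3% of all features were below 0 on all 4 of these arrays. Against the control hairpin TCF3 was -0.21, 0.03, -0.68 and 0.20 on days 1 to 4.

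TCF4, which encodes E2-2, was above 0 on 6 of the 7 SKMM1 arrays that were not wide. It was -0.33, 0.27, 0.48 and 0.39 in repeat 1 (days 1 to 4) and 0.91, 0.60, 0.51 and 0.68 in repeat 3 (days 2 to 5). On the wide arrays of repeat 2 it was -3.67, -2.03, -0.44 and -0.94 on days 2 to 5. TCF4 against the control hairpin was 0.12, 0.73, 0.50 and 0.53 on days 1 to 4, like repeats 1 and 3 and unlike repeat 2.

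In H929, TCF4 was -0.97, -0.74, 0.04 and -0.27 with shCasp10-3 (days 2 to 5). With shCasp10-2 it was -2.91, -2.61, -0.36 and 0.14 in repeat 1 (days 1 to 4) and -0.01, 0.03, -0.21 and 0.07 in repeat 2 (days 2 to 5). In KMS12 it was -0.07, -0.11, 0.09 and 0.21 with shCasp10-3 (days 2 to 5) and 0.12, -2.75, -1.06 and -0.20 with shCasp10-2 (days 1 to 4). The low H929 and KMS12 values fell on or next to wide arrays, and the courses with no wide array, H929 repeat 2 and KMS12 with shCasp10-3, lay between -0.21 and 0.21 as gene means. TCF4 was 1.71 and -0.19 on days 3 and 4 on the arrays labelled OCI-Ly7 and -0.39 and -0.63 in OCI-Ly19.

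The 4 TCF4 probes split. Probes 37370_1 and 38243_1 correlated at 0.63 over the 28 arrays, and no other pair went beyond 0.26. Probe 31376_1 reached 4.75 on day 2 of SKMM1 repeat 3, where the pair of agreeing probes read -0.43 and -0.71. From that pair, TCF4 averaged 0.09, -2.90 and 0.52 in SKMM1 repeats 1 to 3 and 0.33 against the control hairpin. In H929 the pair averaged -0.44 with shCasp10-3, and -0.01 and -0.76 in the shCasp10-2 repeats. The gene mean near 0 in H929 repeat 2 thus joined opposed probes, 34391_1 reaching 1.50 there. In KMS12 the pair averaged 0.02 with shCasp10-3 and -0.42 with shCasp10-2.

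TCF12, which encodes HEB, differed between the SKMM1 repeats. It was 0.17, 0.14, 0.11 and 0.07 in repeat 1 (days 1 to 4), -2.68, -0.18, -1.19 and -1.24 in repeat 2 (days 2 to 5), and 0.13, 1.51, 2.28 and 1.42 in repeat 3 (days 2 to 5). TCF12 against the control hairpin was 0.03, -0.12, -0.07 and -0.08 on days 1 to 4. The SKMM1 repeats thus had no common size or sign, repeat 1 lying near 0. On days 3 and 4 TCF12 was 0.85 and 1.02 on the arrays labelled OCI-Ly7 and -0.44 and 0.15 in OCI-Ly19.

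In H929, TCF12 was -0.87, 0.02, 0.26 and -0.04 with shCasp10-3 (days 2 to 5). With shCasp10-2 it was -1.93, -0.79, 0.08 and -0.17 in repeat 1 (days 1 to 4) and -0.38, -0.20, -0.39 and -0.03 in repeat 2 (days 2 to 5). In KMS12 the hairpins lay on opposite sides of 0. With shCasp10-3 TCF12 was 0.29, 0.22, 0.21 and 0.05 on days 2 to 5, and with shCasp10-2 it was -0.47, -0.88, -0.74 and -0.14 on days 1 to 4. From probes 17492_1, 28008_1 and 28023_1 alone, both KMS12 courses averaged above 0, at 0.21 with shCasp10-3 and 0.11 with shCasp10-2.

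Much of the TCF12 range came from probe 33262_1, which ran from -6.60 to 6.21 and was beyond 3 in size on 12 arrays, 4 of them not wide. On the arrays labelled OCI-Ly7 it gave 5.57 and 5.50, and in KMS12 with shCasp10-2 it gave -5.40 and -4.46 on days 2 and 3. Probes 17492_1, 28008_1 and 28023_1 correlated with each other at 0.62 to 0.76 over the 28 arrays. From these 3 probes the OCI-Ly7 and OCI-Ly19 courses averaged -0.31 and -0.64, below 0, where all 5 probes gave 0.93 and -0.15.

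**Figure D2:**
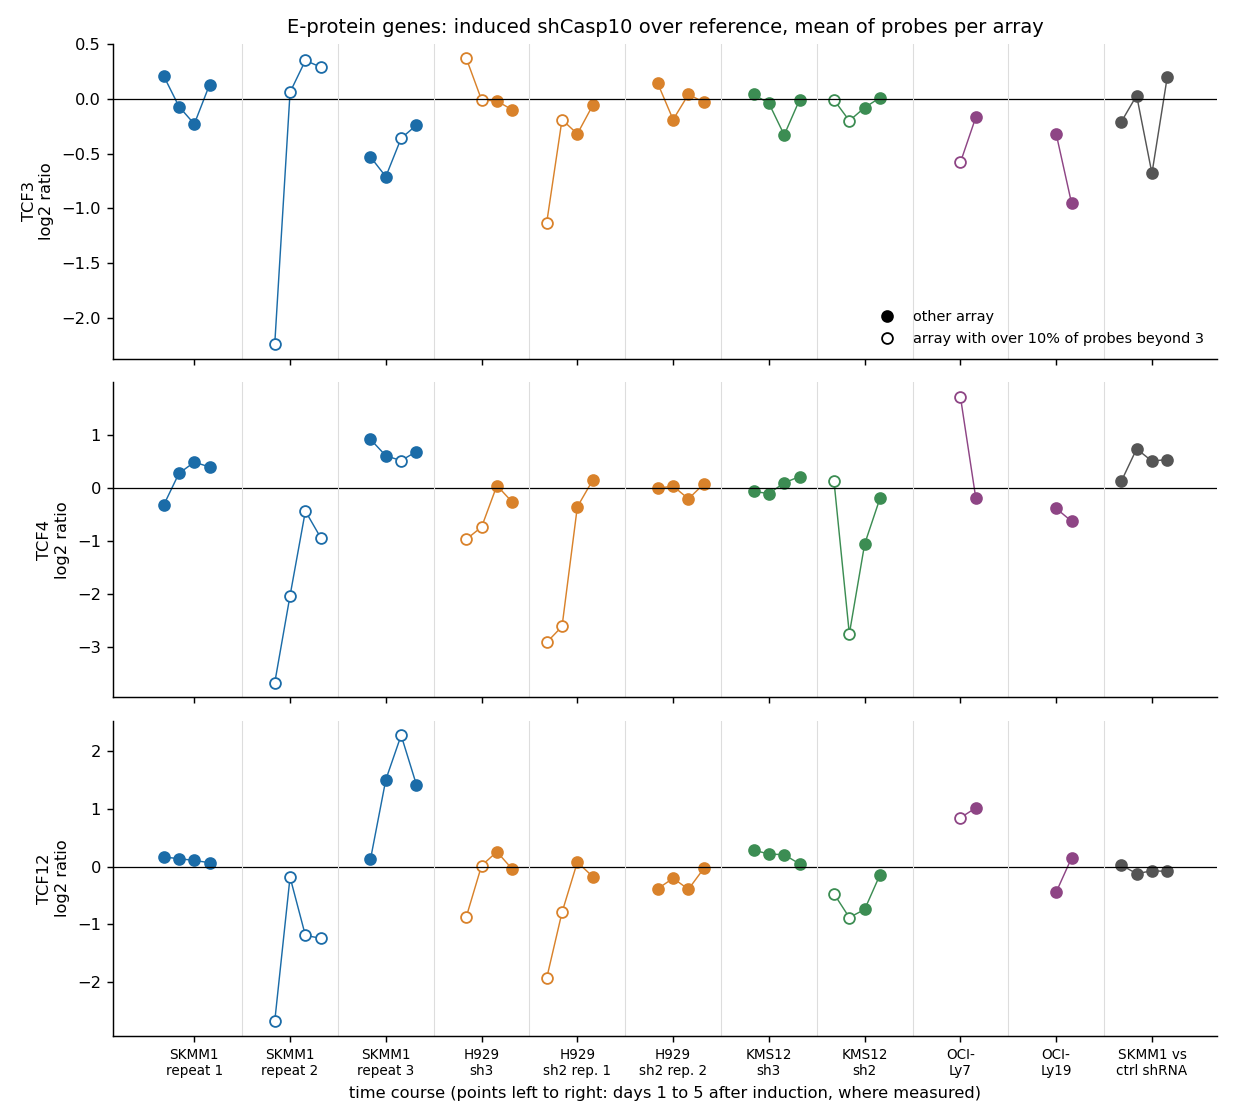
Log2 ratios of TCF3, TCF4 and TCF12 (vertical axes, mean of the probes of a gene) for each array, by time course (horizontal axis) with the days from left to right. Open circles are wide arrays. SKMM1 repeat 2 lies below repeats 1 and 3 for TCF4 and TCF12, while TCF3 lies within -0.33 and 0.37 in H929 and KMS12 except on day 1 of H929 repeat 1.

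**Figure D3:**
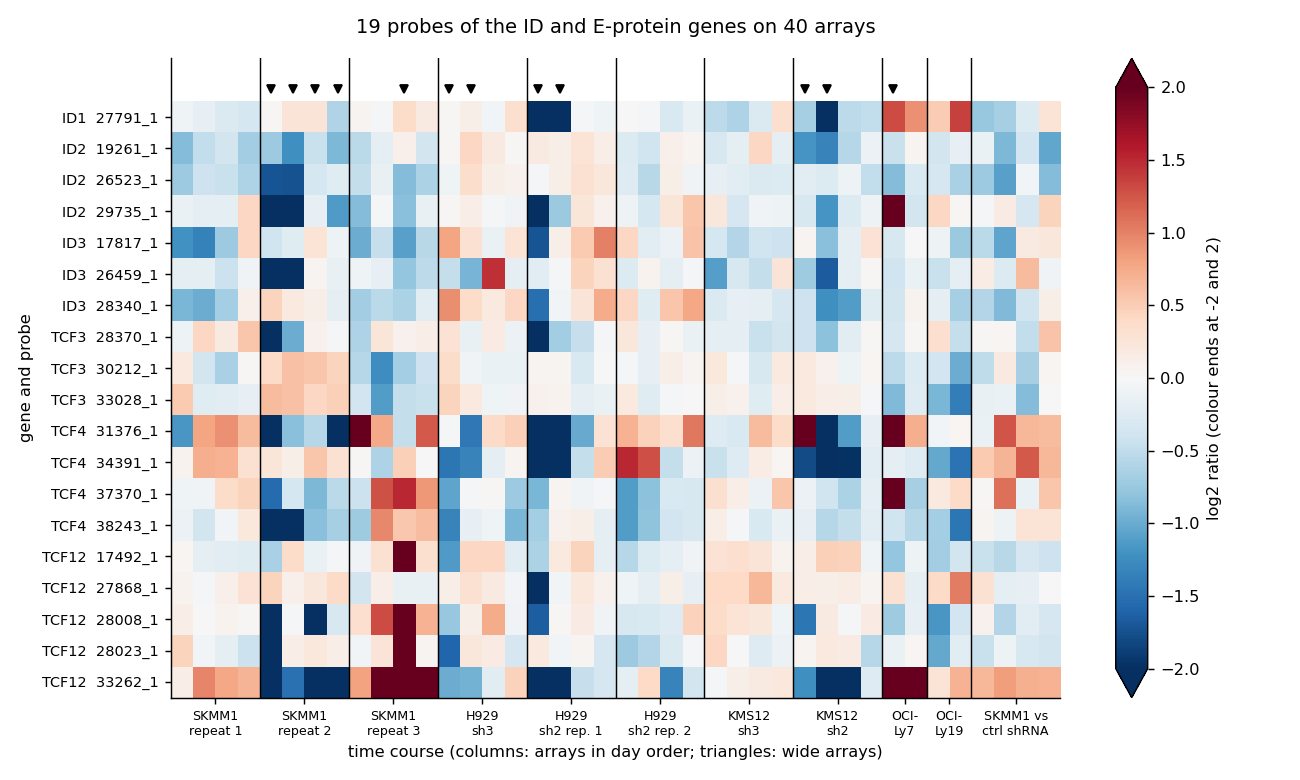
Log2 ratio of each of the 19 probes (vertical axis) on each of the 40 arrays (horizontal axis, by course and day), blue below 0 and red above 0, with the colour scale ending at -2 and 2. Triangles mark the 12 wide arrays. On day 2 of SKMM1 repeat 2 single probes of ID3 and TCF3 turn dark where their partners stay pale and all ID2 probes are below 0, and TCF12 probe 33262_1 is dark in many courses.

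The responses were tested with limma on course means over days 2 to 4, with the time course as the replicate and Benjamini-Hochberg adjustment over 9681 features. No member passed an adjusted p of 0.05 in any comparison, and no feature did (0 of 9681, 0%). Over myeloma, with the 3 lines weighted equally, 1 member besides ID1 (ID3) and 542 features had an unadjusted p under 0.05 in limma. In single lines 2 members did in SKMM1 (248 features), 0 in H929 (205 features) and 1 besides ID1 (ID3) in KMS12 (91 features). The lymphoma response had 1 member (730 features) and the comparison with the control hairpin 0 (269 features) at an unadjusted p under 0.05. ID1 is left out of the member counts wherever a contrast holds its KMS12 values.

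All 6 members had a myeloma estimate below 0, beside a median of -0.27 over all features. The estimates were -0.56 for ID1, -0.39 for ID2 (SE 0.21) and -0.30 for ID3 (SE 0.11). For ID1 no standard error is given where its KMS12 values are included. Those of the E proteins were -0.18 for TCF3 (SE 0.11), -0.51 for TCF4 (SE 0.35) and -0.14 for TCF12 (SE 0.29). The lowest adjusted p of a member other than ID1 in limma was 0.679. No member was below 0 in all 8 myeloma courses, while 3.00% of all features were. With the wide arrays left out, the course means gave TCF4 and TCF12 above 0, at averages of 0.05 ± 0.43 and 0.09 ± 0.42 (SD) over the 7 courses that remained.

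In SKMM1, ID2, ID3 and TCF3 averaged below 0 in all 3 courses, as did 11.8% of all features, and also against the control hairpin, as did 10.5%. From the agreeing probes, SKMM1 repeat 2 averaged 0.06 for ID3 and 0.53 for TCF3, so that only ID2 kept this pattern. In both KMS12 courses 5 members, all but TCF12, averaged below 0, as did 49.7% of all features. The agreeing probes put TCF3 at 0.04 with shCasp10-2 and TCF4 at 0.02 with shCasp10-3 there. The SKMM1 estimates were -0.90 for ID2 (SE 0.33), -0.63 for ID3 (SE 0.17) and -0.40 for TCF3 (SE 0.18), with limma's adjusted p at 0.952 or above for every member. The SKMM1 minus H929 difference for ID3 was -0.86 (SE 0.24, limma, unadjusted p = 0.0077, adjusted p = 1), with 53 features and 1 member at an unadjusted p under 0.05. The H929 minus KMS12 difference for ID3 was 0.73 (SE 0.27, limma, adjusted p = 1), with 34 features and 1 member at that level. SKMM1 minus KMS12 had 79 features and 0 members besides ID1 there. Neither ID3 difference passed the adjustment.

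A fit on single arrays without the wide arrays, with the course as a random block (correlation 0.281), made calls. Arrays of consecutive days may share a culture, so this fit has more values than independent samples. It called 984 features in the lymphoma response (10.2%), 414 higher and 570 lower, and ID1 was the 1 member among them, at 0.93 (SE 0.19, limma, adjusted p = 0.00934). With OCI-Ly19 alone 1450 of the 9681 features were called, 348 higher and 1102 lower, ID1 among the higher ones (0.93, SE 0.23, limma, adjusted p = 0.00907). With the array labelled OCI-Ly7 alone 9.79% were called, 934 higher and 14 lower, so that ID1 (0.92, SE 0.26, limma, adjusted p = 0.0264) moved with nearly all calls there. The CASP10 ratio of that array was 1.50, and it was assumed to vary like the other arrays. The direction of the calls thus turned with the line kept. On course means the same ID1 response had an adjusted p of 0.648 in limma. In the single-array fit with both lymphoma lines TCF3 was -0.46 (SE 0.20) and TCF4 -0.39 (SE 0.19), with limma's adjusted p of 0.151 and 0.195.

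The same fit called 482 features in SKMM1 (4.98%) and no member. The count was 1055 (10.9%) without repeat 1 and 16 (0.165%) without repeat 3, with no member in either. TCF4 came nearest, at 0.55 (SE 0.17, limma, adjusted p = 0.0558), followed by ID2 at -0.35 (SE 0.13, limma, adjusted p = 0.095) and ID3 at -0.46 (SE 0.20, limma, adjusted p = 0.14). With only the agreeing probes TCF4 was 0.17 (SE 0.25, limma, adjusted p = 0.692). With array medians subtracted the fit called 8.15% of features in SKMM1 and 1 member, ID2 at -0.46 (SE 0.13, limma, adjusted p = 0.0388). Without repeat 1 the SKMM1 arm was the 1 course of repeat 3, whose spread was taken from the other groups, and 10.3% of features were called. ID2 was then -0.57 (SE 0.19, limma, adjusted p = 0.0739), a larger value from fewer arrays, and TCF3 was called at -0.81 (SE 0.23, limma, adjusted p = 0.0366). Without repeat 3, when repeat 1 was the 1 course left, 0.300% of features and no member passed, and ID2 was -0.38 (SE 0.18, limma, adjusted p = 0.379).

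Against the control hairpin the single-array fit called 335 features (3.46%) and no member. TCF4 was 0.59 (SE 0.22, limma, adjusted p = 0.157) and ID2 -0.45 (SE 0.18, limma, adjusted p = 0.171), values close to those against uninduced cells in SKMM1. It called 166 features over myeloma (1.71%), 1 in KMS12 (0.0103%) and 0 in H929 (0%, with 462 at an unadjusted p under 0.05), and no member in any of these. With array medians subtracted it called 3.48% over myeloma, 0.0207% in KMS12 and 5.29% against the control hairpin, again with no member. ID3 was 0.32 in H929 (SE 0.17) and ID1, as a description, -0.49 in KMS12. SKMM1 minus KMS12 gave 6 calls (0.0620%) and no member, with TCF4 at 0.85 (SE 0.23, limma, adjusted p = 0.0871). With only the agreeing probes 0 members had an unadjusted p under 0.05 in limma for that difference.

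**Figure D4:**
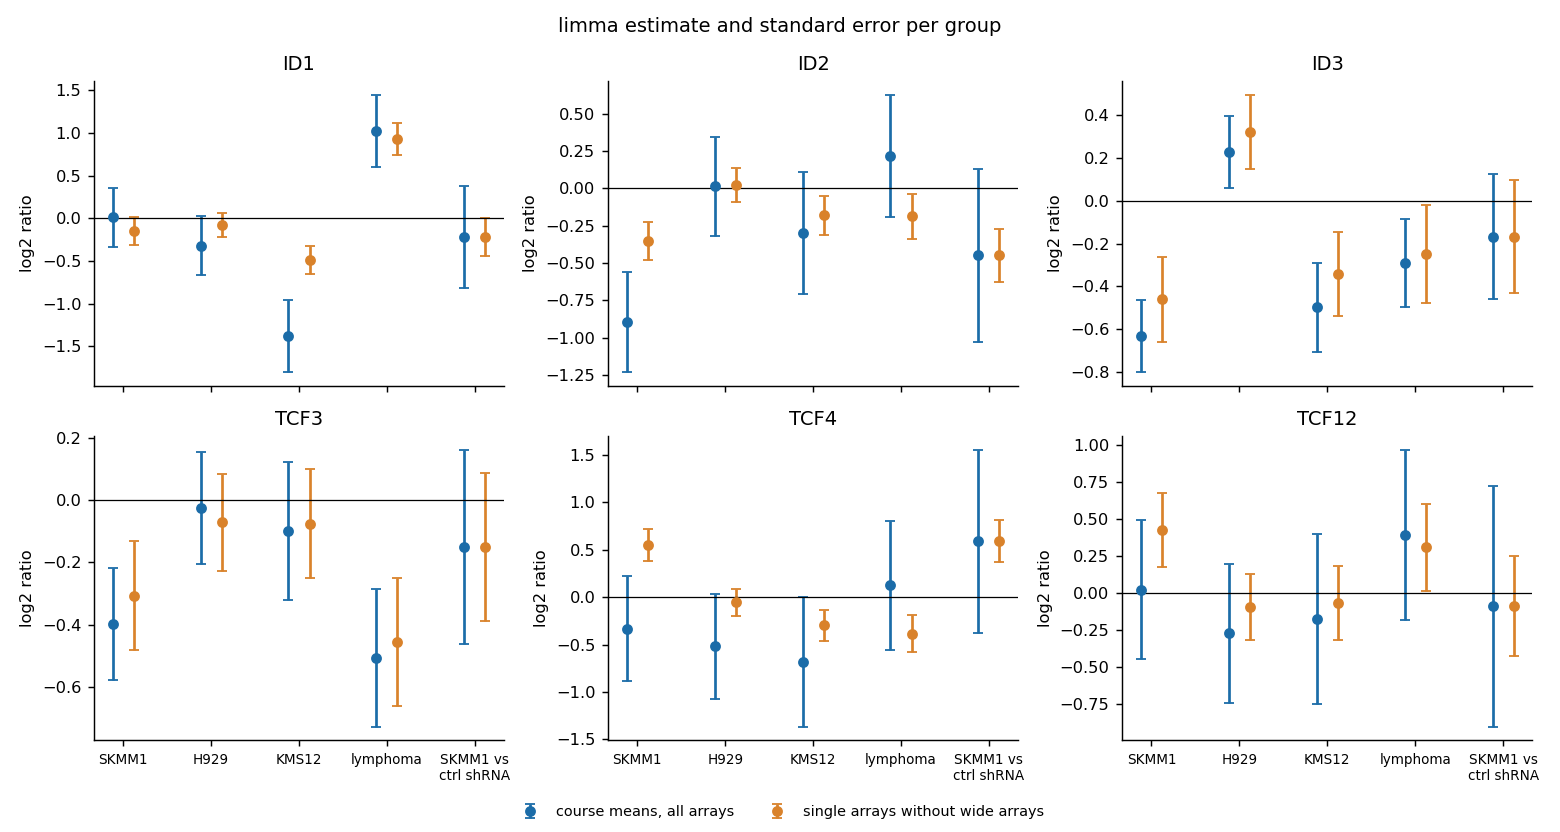
Log2 ratio estimates of limma for each member (vertical axes) by group (horizontal axis), with bars of 1 standard error. Blue points are course means of all arrays and orange points single arrays without the wide ones. The ID1 estimate in KMS12 is -1.38 with the wide arrays and -0.49 without them, and that of TCF4 in SKMM1 is -0.33 with them and 0.55 without. The ID1 estimate in KMS12 is a description, and its bar is no test.

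The hairpins could be compared in H929 and KMS12. On course means shCasp10-3 minus shCasp10-2 was 1.07 for ID1 and 0.42 for TCF12 (SE 0.27). No member and no feature was called by limma (0%, with 187 features and 0 members at an unadjusted p under 0.05). Without the wide arrays the ID1 difference was 0.02 and that of TCF12 was 0.54 (SE 0.19, limma, adjusted p = 0.671). The ID1 difference was thus near 0 without these arrays. For TCF12, course means of the 3 agreeing probes on all arrays were -0.16 in H929 and 0.21 in KMS12 with shCasp10-3, against 0.03 and -0.39 in H929 and 0.11 in KMS12 with shCasp10-2. Without the wide arrays they were 0.44 in H929, from 1 array, and 0.21 in KMS12 with shCasp10-3, against 0.01 and -0.39 in H929 and 0.02 in KMS12 with shCasp10-2. In H929 the shCasp10-3 course thus lay between the shCasp10-2 repeats with all arrays and above both without the wide ones.

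For the change with day, slopes over days 2 to 4 of the 8 myeloma courses were above 0 for all 6 members, beside a median slope of 0.25 over all features. ID1 had 0.60 log2 units a day, TCF4 0.59 (SE 0.28) and ID3 0.31 (SE 0.15). Limma called no feature (0%, with 1066 features and 0 members at an unadjusted p under 0.05). Without the wide arrays ID1 had -0.04 and ID3 0.22 (SE 0.08, limma, adjusted p = 0.712). The median slope was then 0.03 over all features.

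Myeloma and lymphoma were compared on days 3 and 4. The ID1 difference, myeloma minus lymphoma, was -1.20 with all arrays and -1.18 without the wide ones. It holds the KMS12 values and is a description with no test. No feature was called (0%, with 654 features and 0 members besides ID1 at an unadjusted p under 0.05). The other members differed by -0.45 (ID2, SE 0.33) to 0.40 (TCF3, SE 0.26), each within 2 standard errors of 0.

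Likeness between genes was measured as Pearson's r of gene means over the 28 arrays that were not wide, with array medians subtracted. Arrays of a course and a line are not independent, so the values are descriptions. The named gene most like ID2 was ID3 (r = 0.72), and the named gene most like ID3 was ID2. Both were below 0 on 16 of the 28 arrays, both above 0 on 6, and on opposite sides on 6. In H929 both were above 0 on 6 of 8 arrays and in SKMM1 both were below 0 on 6 of 7, so the lines set much of the pooled r. Within H929 r was 0.77 (8 arrays), within SKMM1 0.45 (7 arrays) and within KMS12 -0.58 (6 arrays). Over all 40 arrays, with medians subtracted in the same way, it was 0.50.

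**Figure D5:**
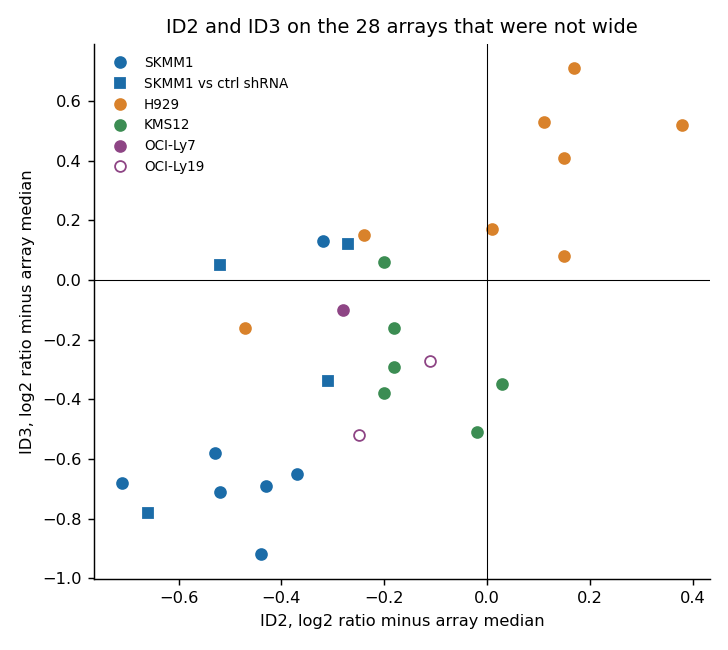
ID3 (vertical axis) against ID2 (horizontal axis) on the 28 arrays that were not wide, as log2 ratio minus the array median, coloured by line. H929 arrays lie mostly to the upper right, with both above 0 on 6 of 8, and SKMM1 arrays mostly to the lower left, with both below 0 on 6 of 7.

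ID1 was not like the other ID genes over these arrays, at r = 0.08 with ID2 and 0.12 with ID3. The 5 named genes most like ID1 were RASSF7 (0.76), a Ras-association domain protein, ZSCAN18 (0.75), a zinc finger protein, EPHB6 (0.74), an ephrin receptor without kinase activity, DGKD (0.74), a diacylglycerol kinase, and MZF1 (0.73), a zinc finger transcription factor. The next gene after ID3 for ID2 was SEPTIN2 (0.71), which was at -0.03 over all 40 arrays, and after ID2 for ID3 it was CD82 (0.68), a tetraspanin. TCF3 was most like ABR (0.87) and CNOT11 (0.85). TCF4 was most like CYBB (0.82), the NADPH oxidase heavy chain, and PLEK (0.81). TCF12 was most like TRMT13 (0.89) and GJA4 (0.87). These r were computed on the mean of all probes of a gene. On the 28 arrays TCF4 probe 31376_1 reached 4.75, and its highest r with another TCF4 probe was 0.26. TCF12 probe 33262_1 ran from -4.46 to 6.21 there, and its highest r with another TCF12 probe was 0.22. The part of single probes in these likenesses was not tested. In some pairs of an ID and an E-protein gene r changed sign with the wide arrays added, medians subtracted in both cases. ID2 with TCF4 was -0.47 over the 28 arrays and 0.45 over all 40, and ID1 with TCF4 was -0.35 and 0.37. Most such pairs did not turn, as ID1 with TCF3 (-0.32 and -0.35) and ID3 with TCF3 (0.30 and 0.59).

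Genes around the ID and E proteins were followed in 4 lists, which are described by counts and medians with no test of the list. Their calls on single arrays stand beside 10.2% of all features called in lymphoma and 4.98% in SKMM1. The shares were 3.46% against the control hairpin and 1.71% over myeloma. The direction of the lymphoma calls and the number of SKMM1 calls changed with the course kept, and list genes were not examined by course. Of the relatives of ID proteins and partners of E proteins, 5 of 24 were measured. On course means limma called none of them in myeloma, 4 of 5 were below 0 and their median was -0.60 (all features -0.27). LMO2 (-1.03, SE 0.53), an adaptor of E-protein complexes, and MYF6 (-0.68, SE 0.44), a myogenic partner, were lowest. MSC (-0.47, SE 0.37), a basic helix-loop-helix repressor, and ID4 (0.01, SE 0.14) were highest.

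Of BMP and TGF-beta signalling, the pathway upstream of ID genes, 22 of 35 genes were measured, with 19 below 0 in myeloma, a median of -0.31 and no call on course means. TGFB2 (-0.85, SE 0.71), a ligand, and TGIF1 (-0.74, SE 0.25), a repressor, were lowest, and SMAD2 (0.07, SE 0.11) and the ligand BMP6 (0.10, SE 0.12) highest. On single arrays without the wide ones, ACVRL1, a type I receptor, rose in SKMM1 by 1.43 (SE 0.34, limma, adjusted p = 0.0258). It rose in lymphoma by 1.32 (SE 0.39, limma, adjusted p = 0.0382). SMAD3 rose in SKMM1 by 0.82 (SE 0.23, limma, adjusted p = 0.0475). No gene of this list was called in H929, in KMS12 or over myeloma, where the list medians were -0.03, -0.18 and 0.00.

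Of B-lineage genes under E proteins, 21 of 26 were measured, with 20 below 0 in myeloma on course means, a median of -0.60 and no call. VPREB3 (-1.04, SE 0.63) and IRF8 (-0.91, SE 0.54) were lowest, and IRF4 (-0.06, SE 0.12) and JCHAIN (0.09, SE 0.12), the immunoglobulin joining chain, highest. On single arrays without the wide ones the median was -0.04, and IGLL1 was the gene called. It fell by 0.36 over myeloma (SE 0.09, limma, adjusted p = 0.0496), by 0.74 in SKMM1 (SE 0.17, limma, adjusted p = 0.0228) and by 0.95 against the control hairpin (SE 0.22, limma, adjusted p = 0.0255). IGLL1 encodes a surrogate light chain, and its 3 probes may share sequence with lambda light-chain genes, so the source of the signal is uncertain. In lymphoma GFI1, a repressor, rose by 0.93 (SE 0.24, limma, adjusted p = 0.0227) and CD79B, a B-cell receptor subunit, fell by 0.91 (SE 0.29, limma, adjusted p = 0.0494).

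Of cofactors and turnover factors of ID and E proteins, 19 of 26 were measured, with 17 below 0 in myeloma on course means and a median of -0.21. ETS2 (-0.80, SE 0.34) and RUNX1T1 (-0.77, SE 0.62) were lowest, and RBL1 (0.05, SE 0.09) and USP1 (0.26, SE 0.15), a deubiquitinase that stabilises ID proteins, highest. On single arrays without the wide ones MAPK3, the kinase ERK1, fell by 0.41 over myeloma (SE 0.10, limma, adjusted p = 0.0389) and rose by 0.68 in lymphoma (SE 0.20, limma, adjusted p = 0.0397). RBL2, a retinoblastoma relative, fell by 0.64 against the control hairpin (SE 0.17, limma, adjusted p = 0.0395) and by 0.52 in lymphoma (SE 0.14, limma, adjusted p = 0.0313). RB1 and ETS1 fell there by 0.69 each (SE 0.17 each, limma, adjusted p = 0.0179 and 0.0212), and NOTCH1 rose by 0.97 (SE 0.29, limma, adjusted p = 0.0399). Whether these lymphoma calls hold in each line was not tested.

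Markers of cell types were read beside these values in the same single-array fit, the mature B-cell markers PAX5, CD22 and CD79B also standing in the B-lineage list. In SKMM1 the 5 mature B-cell markers measured had a median of 0.61, the 6 plasma-cell markers -0.06, the 5 T-cell markers -0.35 and the 3 myeloid markers 0.47, with a median of 0.14 over all features and no call. Against the control hairpin these medians were 0.49, -0.12, -0.45 and -0.05. On course means of all arrays the SKMM1 medians were -0.35, 0.05, -0.36 and -0.23, with -0.21 over all features. The single-array medians were -0.45, -0.10, -0.14 and -0.44 in KMS12 and -0.08, -0.09, 0.00 and -0.11 in H929. The sign of the mature B-cell median thus changed with the fit and the line. In lymphoma XBP1 (-0.78) and CD79B fell and the mature B-cell median was -0.10. In these bulk cultures fewer cells of a kind and less RNA per cell cannot be told apart, and the part of marker shifts in the values of ID2, ID3 and TCF4 was not tested.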

How the data were processed

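Log ratios that the authors deposited, 1 per probe and array for 15246 probes on 40 arrays, were read as log2 of Cy5 over Cy3. Per the labels, 50 µg of total RNA was labelled with each dye, and induced cells had Cy5. For the base and direction of the ratio, the background correction and any scaling, the answer is not given in the sources used here. With 1 dye orientation throughout, dye bias stays in each ratio tested against 0. Scanner intensities were not used, and the number of arrays limits the precision.

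The platform annotation, which is old, gave 1 symbol to 10169 probes. RefSeq held the Entrez identifiers of 10128 probes and changed 0 symbols. The mean over the probes of a gene was used, and with the unnamed probes kept singly there were 9681 features. Promoters are from the RefSeq table of GRCh38.p14.

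Replicates were time courses. Where no repeat number fitted a course, as for 5 arrays of days 1 and 5, the run of database numbers placed the array. The day 5 arrays in SKMM1 repeats 2 and 3 are labelled repeats 1 and 2. Course means over days 2 to 4 of all 11 courses (lymphoma days 3 and 4) were fitted together with limma 3.58.1 in R 4.3.3 (lmFit, eBayes, 6 residual degrees of freedom), with Benjamini-Hochberg adjustment at 0.05. The single course against the control hairpin was assumed to vary like the others. The fit on course means was tested on simulated data for the myeloma response, and the single-array and other fits were not.

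Alternatives were leaving out wide arrays, centring, scaling, single arrays with duplicateCorrelation, turned signs of SKMM1 repeats 2 and 3, other summaries of probes and days, left-out courses and a replicate block. Median-centred single arrays, left-out courses in single-array fits, agreeing probes (r over 0.6 with another probe of the gene on the 28 arrays that were not wide) and all alternatives for lymphoma were chosen after seeing the data. The members, lists and rules were chosen with earlier results of these data known. Named are all members, list genes past the threshold, the 2 lowest and 2 highest of each list over myeloma, and the genes most like a member (5 for ID1, 2 for the others).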

Additional observations from a re-analysis of the deposited data

Results flagged for a closer look

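Among the 8 myeloma courses, ID2 had 1 course far below the others. It averaged -1.92 in SKMM1 repeat 2, and the gap to the next course was 0.699 of the whole range (critical value 0.526). This rests on the mean of all 3 probes, with probe 29735_1 at -7.97 on day 2. From the agreeing probes SKMM1 repeat 2 averaged -1.03, the next course -0.51 (SKMM1 repeat 1) and the highest 0.19 (H929 repeat 1). The rule was not applied to those averages. ID1 was not examined in this way, its KMS12 value being known. Chance sets a course apart in this way in about 1 in 20 groups. All arrays of SKMM1 repeat 2 were wide, so it has no value without them.

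For ID3, in 3 pairs of groups all courses of one group lay on one side of 0 and all courses of the other on the opposite side. SKMM1 minus H929 was -0.86, from -0.63 ± 0.21 in SKMM1 and 0.23 ± 0.17 in H929 (SD, n = 3 each). From the agreeing probes SKMM1 repeat 2 averaged 0.06, so that this pattern was lost. H929 minus KMS12 was 0.73, with KMS12 at -0.50 ± 0.10 (SD, n = 2). Neither passed limma's adjustment over all features. H929 minus lymphoma was 0.52, with lymphoma at -0.29 ± 0.14 (SD, n = 2), and was not tested.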

How the results depend on the processing

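On course means limma called 0 members in each comparison under the alternatives run for it. Leaving out the wide arrays and centring were run for all comparisons. Scaling to one spread and other summaries of probes were run for myeloma, all days for myeloma and the change with day, turned signs for myeloma and contrasts with SKMM1, and agreeing probes for the responses and line differences. Leaving out each course in turn was run for myeloma and the line concerned (0 members at the lowest and the highest). With the replicate number as a block for repeats 1 and 2 of SKMM1 and H929, a replicate block gave 0 members (1 feature at an unadjusted p under 0.05), and the same 4 courses without it gave 0 (3 features). The labels do not say that these numbers pair the lines. Members were called only on single arrays without the wide ones. In lymphoma, whose alternatives were all chosen after seeing the data, this gave 1 member, ID1, and 1 again with medians subtracted (0.90, SE 0.19, adjusted p = 0.00732), with the agreeing probes, and without OCI-Ly7 or OCI-Ly19 under both scalings. In SKMM1 it gave 1 member with medians subtracted (ID2) and 1 with medians subtracted and without repeat 1 (TCF3), both settings chosen after seeing the data. Counts over all features were 166 against 0 on course means for myeloma, 482 against 0 for SKMM1, 984 against 0 for lymphoma and 335 against 0 for the control hairpin, which had 1 call on course means without the wide arrays. With medians subtracted they were 337, 789, 1190 and 512. SKMM1 had 1055 without repeat 1 and 16 without repeat 3 (994 and 29 with medians subtracted), and lymphoma 1450 without OCI-Ly7 and 948 without OCI-Ly19. In SKMM1, calls lay 377 higher and 105 lower as deposited and 411 higher and 378 lower with medians subtracted. Over 19 settings the myeloma average ran from -0.86 to -0.23 for ID1, from -0.33 to -0.11 for ID3 and from -0.23 to -0.04 for TCF3. It ran from -0.49 to 0.03 for ID2 (above 0 only with the sign of SKMM1 repeat 2 turned), from -0.73 to 0.06 for TCF4 and from -0.43 to 0.16 for TCF12. The cause of these differences was not tested. With 2 or 3 courses a line, days that share a course and no intensities, the data limit single-line statements.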
